A study of Homo sapiens with 42 samples.

Results

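The replication-dependent histone genes of chromosome 6 were described through 262 regions of open chromatin, out of 242490 annotated regions in the 4 cell line tables. Distances are in bases from the start given in the deposited annotation, negative upstream, and differ by more than 50 bases from the RefSeq start at 25 regions of 6 genes (H2AC8, H2BC15, H3C6, H3C8, H4C5 and H4C9). A region was taken when it lay between 25.5 and 28.5 Mb on chromosome 6 (hg38), carried the symbol of an H1, H2A, H2B, H3 or H4 gene of the large histone cluster, and lay within 3 kb of that gene's transcription start. PC9 cells gave 78 of these regions for 42 genes, H1975 cells 99 for 49 genes, HCC2935 cells 54 for 36 genes and HCC827 cells 31 for 29 genes. Together the regions named 50 of the 55 coding histone genes that RefSeq places in the window, and 26 genes had a region in all 4 lines. The 5 genes without a region of their own were H2AC1, H2BC1, H1-6, H2AC6 and H2BC14. H2AC6 and H2BC14 each share a divergent promoter with a neighbour, H2BC4 and H2AC14, to which the region was annotated instead. Each region was 502 bases wide, so read densities can be compared between regions.

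Histone proteins package DNA. Pairs of H2A and H2B and pairs of H3 and H4 form the core around which DNA winds, and the linker histone H1 binds where DNA enters and leaves it. Cells that copy their DNA need new histones in the same hours, and the genes for them sit in clusters as many near-identical short copies without introns. Their transcripts end in a stem-loop rather than a poly(A) tail, and transcription is tied to entry into S phase through the coactivator NPAT and promoter elements that differ between the classes.

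The study followed 4 lines of EGFR-mutant lung adenocarcinoma through treatment with osimertinib, an inhibitor of mutant EGFR, and with the drug AZD5153. Control cells were kept 21 days without drug and then 3 days in DMSO. Drug-tolerant persister cells (DTP) received 500 nM osimertinib for 24 days. The combination group (combo) received 500 nM osimertinib for 21 days and then 150 nM AZD5153 for 3 days, where continued osimertinib is neither stated nor denied by the labels. PC9 and H1975 also had an AZD5153 group of 21 days without drug and 3 days at 150 nM. Each of the 14 groups held 3 libraries. All groups share long culture, and each line is a single established tumour cell line. The sample titles call the libraries ATAC-seq, a readout of open chromatin, whereas the extraction text describes immunoprecipitation of acetylated H3K27. Values are therefore given as read density, as CPM (counts scaled to a common library total) after TMM scaling within each line. A lower density can come from fewer cells with an open site or from less opening per cell, which cannot be told apart here.

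Total counts per library lay between 1724680 and 4242868 (HCC827), 3968690 and 8066287 (HCC2935), 3989287 and 5193390 (PC9), and 6200672 and 10062505 (H1975). The histone regions took 0.0173% to 0.0544% of the counts in HCC827, whose table holds the fewest of them, and 0.0681% to 0.113% in the other lines. The epithelial markers EPCAM, CDH1, KRT7, KRT8, KRT18 and KRT19 all had a promoter region in every line, at control means of 10.7 to 61.5 CPM, and the lung marker NKX2-1 at 12.4 to 33.6 CPM. Of the other lung markers, NAPSA had no region in HCC827 and 5.54 to 17.6 CPM elsewhere, and SFTPB had one in H1975 (16.8 CPM) and HCC827 (12.6 CPM) only. Of the markers of other cells reported here, PTPRC had no region in any line, and CD3E had one in PC9 (9.85 CPM) and HCC2935 (12.1 CPM). Of fibroblast genes COL1A1 had one in every line (22.5 to 26 CPM), PDGFRB in PC9 (8.85 CPM) and H1975 (2.5 CPM) and COL1A2 in HCC2935 (4.25 CPM). Of endothelial genes CDH5 had one in the 3 lines other than HCC827 (13 to 23.6 CPM) and PECAM1 in those other than HCC2935 (5.38 to 7.86 CPM). In PC9 and H1975 the spread between libraries of a group was close to counting error (common dispersions 9.77e-05 and 0.00102, against 0.0103 in HCC2935 and 0.203 in HCC827). The labels speak of biological triplicates, but p-values in PC9 and H1975 measure only that small spread, which may be technical. For that reason a stricter count follows the main ones in these 2 lines, made from 1 summed library per group with the spread of HCC2935 assumed. In HCC827 one control library, replicate 3, held 832 CPM over the histone regions against 503 and 433 in the other control libraries, and one combo library, replicate 1, held 306 against 461 and 473.

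The promoters themselves show what the classes share. RefSeq promoter sequence (GRCh38.p14) was matched to 50 of the 55 starts, and the 250 bases upstream of each were searched on both strands for 6 short motifs. The octamer ATTTGCAT, the site bound by OCT1, stood in 9 of 11 H2A and 12 of 15 H2B promoters and in no H1, H3 or H4 promoter, against 1.63% of all 35116 promoters of the same length. The CCAAT letters, bound by NF-Y, stood in every H1, H2A, H2B and H3 promoter and in 3 of 10 H4 promoters (32% of all promoters). The H1 box AAACACA stood in 6 of 6 H1 promoters and in none of the other classes (4.82% of all). The TATA letters TATAAA were found in 34 of 50 histone promoters (10.7% of all). GGGCGG, the GC box, was found in 10 of 50, which were 4 of 6 H1, 5 of 10 H4 and 1 of 8 H3 promoters (42.6% of all). The E2F-like letters TTTGGCGC were in none of the 50 (0.55% of all). These are matches of letters, not measured binding, and matches of different motifs were counted separately where they overlapped. A match between 2 divergent starts was counted for both genes, so the H2A and H2B counts are not independent. For example, the same octamer lies 47 bases upstream of H2BC11 and, on the other strand, 208 bases upstream of H2AC11.

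The 6 promoters below are shown because the results turn on them. The H2BC11 and H2BC8 stretches are the whole of the DNA between these starts and those of H2AC11 and H2AC8, which are read the opposite way. H1-1 and H3C2 are examples from the H1 and H3 classes that moved in several comparisons, and H2BC6 and H3C6 are the promoters that rose most in HCC2935. Each is read 5′ to 3′ on the gene's own strand and ends at the base before its start, and capitals mark matches to the motifs named above. The stretches are chr6:27132796-27133042, minus strand (H2BC11), chr6:26216689-26216920, minus strand (H2BC8), chr6:26017788-26017977, minus strand (H1-1), chr6:26032100-26032219, minus strand (H3C2), chr6:26183566-26183760, plus strand (H2BC6) and chr6:26224018-26224177, plus strand (H3C6).
H2BC11: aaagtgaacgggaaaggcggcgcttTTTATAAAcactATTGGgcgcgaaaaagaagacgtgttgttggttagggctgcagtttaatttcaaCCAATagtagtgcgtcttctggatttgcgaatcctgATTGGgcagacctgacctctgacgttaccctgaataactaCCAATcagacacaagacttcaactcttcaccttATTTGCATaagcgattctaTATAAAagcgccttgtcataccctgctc
H2BC8: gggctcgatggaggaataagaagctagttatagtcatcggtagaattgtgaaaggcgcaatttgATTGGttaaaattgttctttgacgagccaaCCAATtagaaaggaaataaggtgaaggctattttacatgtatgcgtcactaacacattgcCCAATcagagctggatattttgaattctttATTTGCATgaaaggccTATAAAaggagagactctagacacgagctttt
H1-1: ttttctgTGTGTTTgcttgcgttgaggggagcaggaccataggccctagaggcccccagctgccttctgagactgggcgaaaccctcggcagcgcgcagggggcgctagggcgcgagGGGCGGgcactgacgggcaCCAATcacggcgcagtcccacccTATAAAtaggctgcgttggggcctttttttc
H3C2: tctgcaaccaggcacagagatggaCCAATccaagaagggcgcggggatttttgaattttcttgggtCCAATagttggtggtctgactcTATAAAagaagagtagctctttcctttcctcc
H2BC6: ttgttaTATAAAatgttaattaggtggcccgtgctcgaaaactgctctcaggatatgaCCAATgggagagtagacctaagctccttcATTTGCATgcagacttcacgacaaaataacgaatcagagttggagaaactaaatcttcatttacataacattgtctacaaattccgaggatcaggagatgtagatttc
H3C6: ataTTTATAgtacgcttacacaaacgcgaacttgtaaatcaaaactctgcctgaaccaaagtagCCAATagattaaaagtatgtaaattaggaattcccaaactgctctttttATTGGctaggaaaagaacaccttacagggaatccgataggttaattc
In the H2BC11 stretch the octamer begins 47 bases upstream of the start and a TATA box 28 bases upstream. H2BC8 has the octamer at 48 and the TATA box at 32 bases upstream, and H3C2 has CCAAT at 96 and 54 and a TATA box at 32 bases upstream. H2BC6 differs from both other H2B promoters shown, with the octamer 108 bases upstream and no TATA letters near the start. This is not particular to H2BC6. H2BC1, H2BC3, H2BC4 and H2BC7, not shown, have the octamer 104 to 123 bases upstream, and H2BC4 and H2BC7 have no TATA match near the start either. In H3C6 the only TATA match lies 157 bases upstream on the other strand. The H1 box match of H1-1 lies 183 bases upstream, also on the other strand. H1-2, H1-3, H1-4 and H1-6 have one 105 to 119 bases upstream on the gene's own strand, so H1-1 differs from them.

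Peaks had been called by the authors in each library, and the highest point of a peak, its summit, lay upstream of the start in most cases. Over 177 peaks at H1 starts the median summit was 30 bases upstream, at H3 starts 73 bases (339 peaks), at H4 starts 90 bases (361), at H2B starts 103 bases (522) and at H2A starts 129 bases (443). Between lines the median moved only from 89 to 99 bases upstream. The H2A and H2B medians thus fall inside the stretches printed above for 2 divergent pairs. A divergent partner was found for 22 of the 55 genes, so that 1 peak can serve both genes and their signals cannot be separated.

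**Figure D1:**
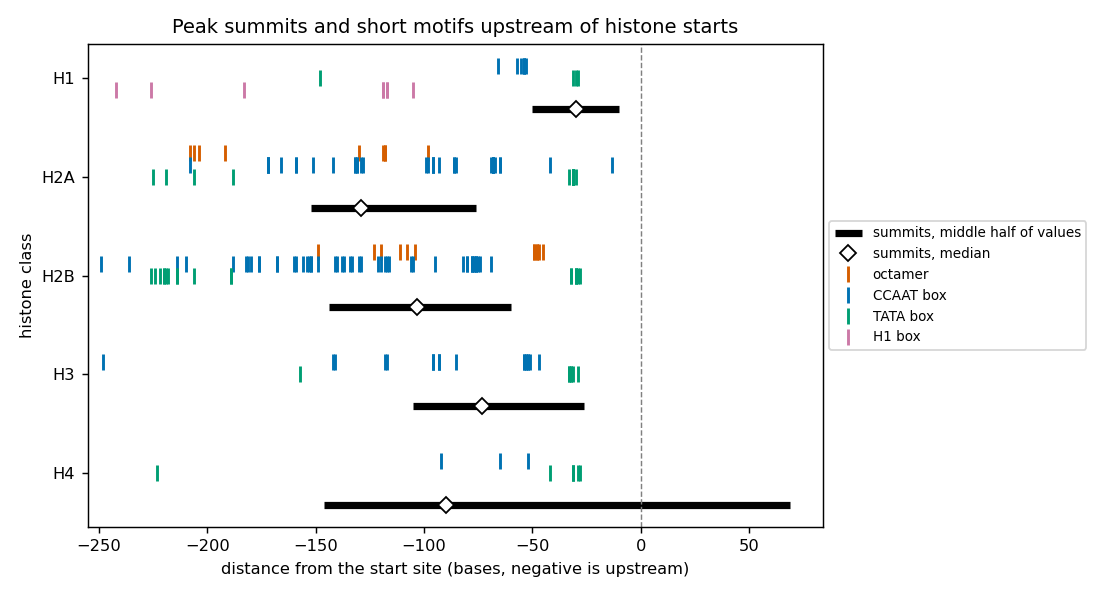
Position of peak summits and of motif matches relative to the start (x axis, bases, negative upstream) for each histone class. Diamonds are medians and thick bars the range from the lower to the upper quartile of all summits, from 30 bases upstream for H1 to 129 for H2A; coloured ticks are motif matches, with octamers only in the H2A and H2B rows.

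Which histone starts carried a peak differed between the lines. Peaks were called in each library to different depth, from 29402 peaks in HCC827 DTP replicate 2 to 224437 in H1975 DTP replicate 1. Line and depth cannot be told apart in the counts that follow. Of the 55 starts, 51 had a peak in all 12 H1975 libraries, 42 in all 12 PC9 libraries and 35 in all 9 HCC2935 libraries. HCC827 had 9 such starts, and 14 to 50 starts with a peak per library. The starts with a peak in all 42 libraries were those of H2BC4, H2AC6, H4C5, H2BC11, H2AC11, H2BC12, H2AC12, H2AC15 and H2BC15, of which 8 belong to H2A and H2B and 1, H4C5, to H4. No start lacked a peak everywhere. H2AC1, H2BC1 and H1-6, which are known from testis, had a peak in 3, 4 and 2 libraries of 42.
H1-1, a linker histone gene, had a peak in all 24 PC9 and H1975 libraries and in none of the 18 others. H2BC7, H3C4, H3C12 and H2AC7 had none in HCC2935, and H3C7 and H4C7 were without a peak in PC9 and HCC2935 but had one in all 12 H1975 libraries. H2BC6 had a peak in all 24 PC9 and H1975 libraries and in no HCC827 library. In HCC2935 the starts of H2BC6 and H3C6 had a peak in 0 of 3 control libraries, 3 of 3 DTP libraries and 3 of 3 combo libraries.

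**Figure D2:**
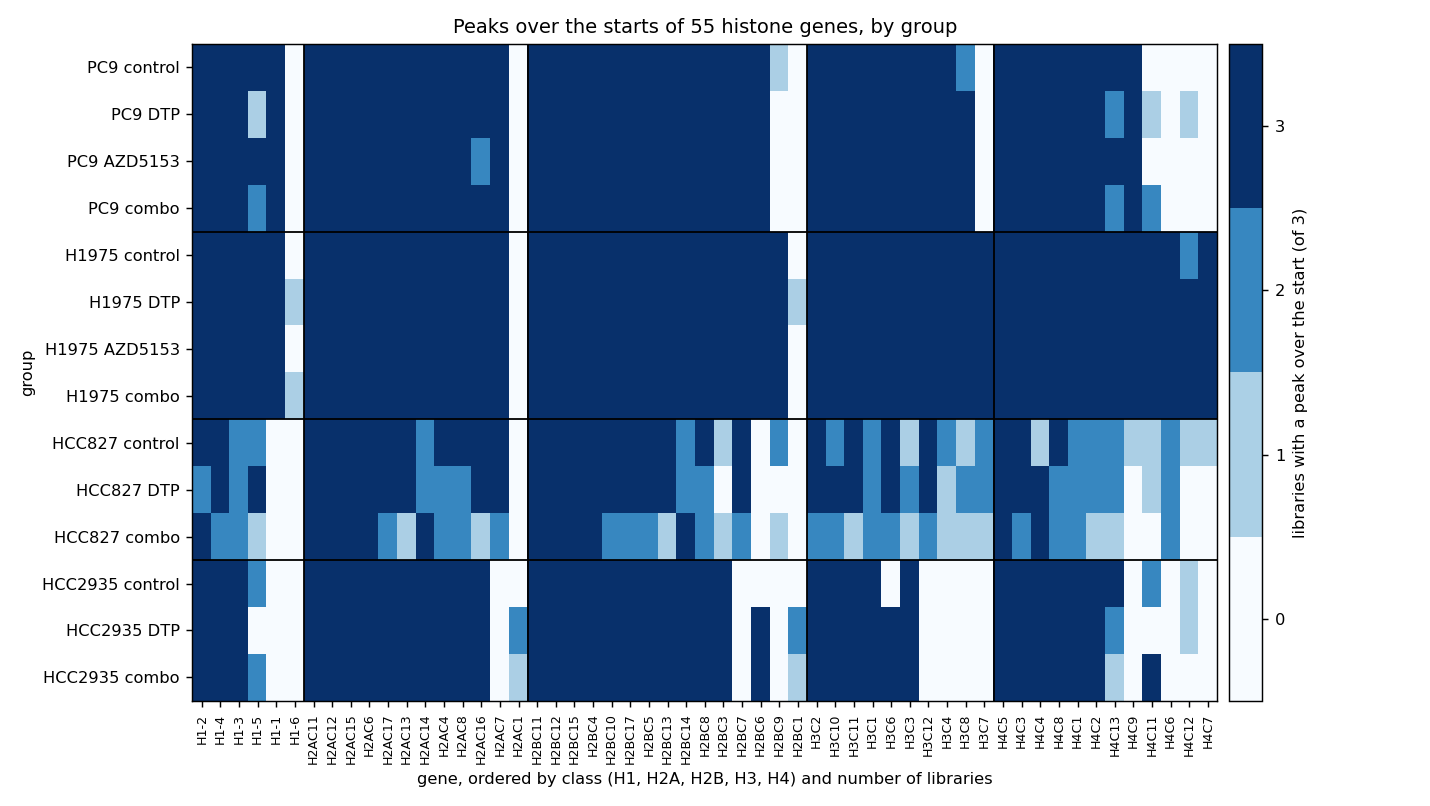
Number of libraries (of 3, shade) with a peak over the start of each of 55 histone genes (x axis, by class) in each of 14 groups (y axis). H1975 is filled for 51 genes, HCC2935 is empty for H1-1, H2BC7, H3C4 and H3C12, and H2BC6 and H3C6 go from 0 to 3 libraries between control and DTP in HCC2935.

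In control cells the highest region of the cluster was the same stretch in all 4 lines. The region over the shared H2BC11 and H2AC11 promoter held 41.3, 41.1 and 41.2 CPM in PC9, 27.2 to 34.2 CPM in H1975 and 52.4 to 57.3 CPM in HCC2935. In HCC827 it held 29.9, 31.2 and 59.9 CPM. Regions on a start had median control levels of 15.9 CPM (PC9), 13 (H1975), 18.8 (HCC827) and 22.8 (HCC2935). Those 1 to 3 kb away had medians of 6.48, 6.47, 12.5 and 8.38 CPM. By class, the highest control means after H2A were H2BC5 in PC9 (34.7 ± 2.8 CPM, SD, n = 3) and HCC2935 (41.4 ± 3.8), and H2BC4, which carries the start of H2AC6 as well, in H1975 (23.9 ± 2.5) and HCC827 (33.2 ± 13). H3C2 led the H3 genes in PC9 (20.8 ± 2.6), H1975 (17.1 ± 2.5) and HCC2935 (27.6 ± 3.2), and H3C12 in HCC827 (20.9 ± 13). H4C1 led the H4 genes in PC9 (21.2 ± 1.8) and HCC2935 (29.0 ± 1.3), H4C4 in H1975 (22.8 ± 4.7) and H4C3 in HCC827 (23.5 ± 9.6). The highest linker histone regions were at 22.9 ± 1.9 for a region 836 bases downstream of the H1-2 start in PC9, 12.8 ± 2.8 for H1-1 in H1975, 18.6 ± 9.7 for H1-4 in HCC827 and 22.8 ± 0.58 for H1-2 in HCC2935. Neighbouring leaders such as H3C2 and H4C1 in PC9 did not differ beyond their spread.
The lowest regions were those of H3C3 1464 bases from its start in PC9 (1.7 ± 0.098 CPM) and H4C5 1887 bases from its start in H1975 (1.40 ± 0.30). In HCC2935 they were the H2BC6 start (0.594 ± 0.85) and the H3C6 start (0.915 ± 0.53). In HCC827 the lowest was a region 606 bases from the start of H2BC11 (7.26 ± 0.34).
On a common scale over regions matched between the lines by position, the H2AC15 start read 55.8 CPM in HCC2935 control cells, 32.2 in H1975, 23.2 in HCC827 and 12.7 in PC9. H2AC13 read 52.8, 29.0, 20 and 10.9 CPM in the same order. H3C6 went the other way, with 22.4 CPM in PC9, 16.3 in HCC827, 11.3 in H1975 and 1.34 in HCC2935. Levels between lines also hold copy number and batch, which were not separated from accessibility here, so these orders are a description.

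The comparison of DTP with control asks what long osimertinib exposure does at these genes. In 3 lines, more histone regions were lower than higher in DTP. edgeR's quasi-likelihood test at an adjusted p under 0.05 called 2 of 78 regions higher and 14 lower in PC9, 8 of 99 higher and 33 lower in H1975, and 2 of 54 higher and 11 lower in HCC2935. Over all tested regions of these lines the test called 15.4% higher and 16.4% lower in PC9, 24.9% and 27.0% in H1975, while HCC2935 had 18.7% and 18.6%. Over annotated regions within 3 kb of any start the shares were 14.9% and 14.6%, 26.1% and 27.0%, and 21.5% and 14.8%. The members' shares lower were 17.9%, 33.3% and 20.4%, against 16.4%, 27.0% and 18.6% over all regions, while the shares higher (2.56%, 8.08% and 3.70%) lay under the background in the 3 lines. Median log2 fold changes were -0.11, -0.20 and -0.23, against 0.01, 0.02 and -0.01 over all regions.
HCC827 had 0 of 31 regions called in either direction, where the background was 0.0158% higher and 0.00607% lower. At an unadjusted p under 0.05, 1 region was lower, and DESeq2 called 0. Its median was -0.32, and without control replicate 3 it was 0.09, so the direction there rested on 1 library. With the replicate number as a block, which pairs the HCC827 libraries, no histone region was called either. That fit called 2.16% of all regions higher and 1.72% lower.
With libraries summed the counts were 1 higher and 6 lower in PC9, 3 and 16 in H1975 and 2 and 9 in HCC2935. Scaling by library size alone moved the median of all H1975 regions to 0.22 and gave 15 histone regions higher and 18 lower with a median of 0.00, and in PC9 it gave 4 higher and 12 lower. Leaving out DTP replicate 1 in PC9 left 10 calls, and leaving out DTP replicate 3 in HCC2935 left 8, of which 3 were higher and 5 lower.

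Calls were also counted by distance from the start, without a test of the difference between distances or lines. In PC9 the regions on a start had 1 of 34 called higher and 0 lower (3 higher and 1 lower at an unadjusted p under 0.05, none by DESeq2) and a median of -0.03. The 19 regions 1 to 3 kb away had 10 called lower and 1 higher, with a median of -0.63. In H1975 the regions on a start had 17 of 36 called lower and 0 higher (20 lower and 0 higher at an unadjusted p under 0.05, 12 lower and 0 higher by DESeq2) and 35 of 36 values below 0. In HCC2935, 2 of 29 regions on a start were lower and 2 higher, against 6 of 15 lower within 1 kb and 3 of 10 lower at 1 to 3 kb. These off-start regions were also the lower ones in read density, and a mean of at least 50 counts left 4 calls in PC9 and 25 in H1975.

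**Figure D3:**
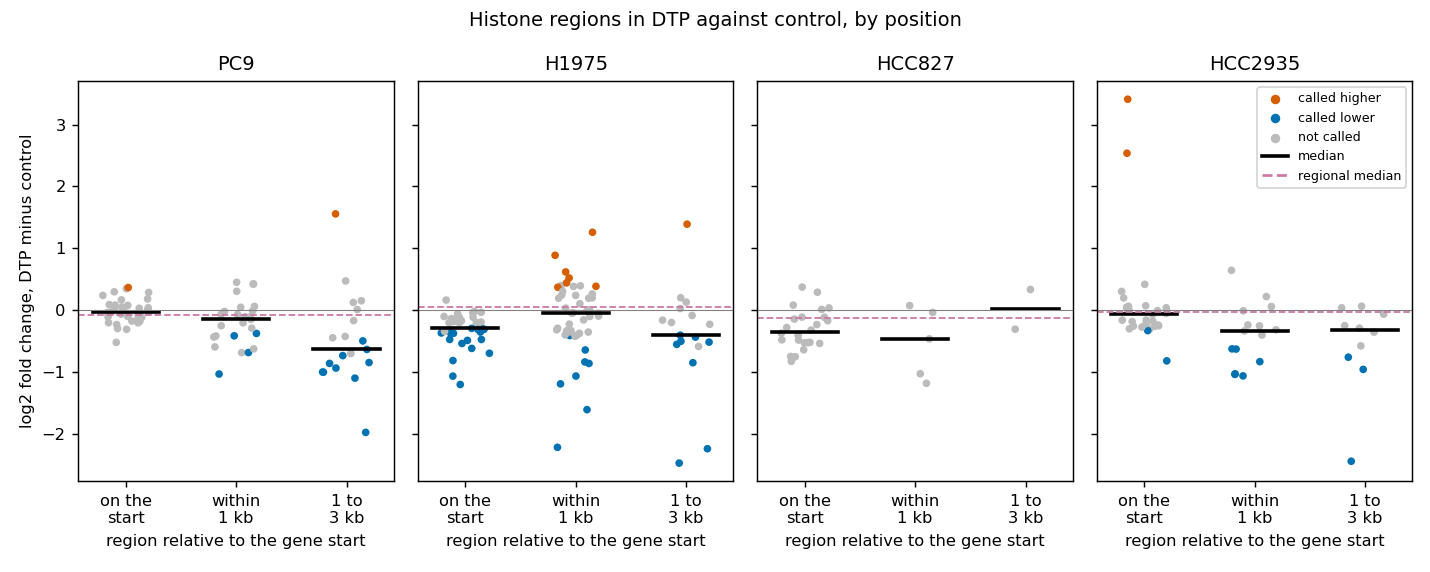
The log2 fold change of DTP minus control (y axis) for each histone region, in 4 lines, split by distance from the gene start (x axis). Points are regions (orange called higher, blue lower, grey not called), black bars medians and dashed lines the median of the other tested regions of chromosome 6 from 20 to 35 Mb; PC9 starts centre on -0.03 and the 1 to 3 kb regions on -0.63, whereas H1975 starts centre on -0.29.

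Among linker histones in DTP, PC9 was the only line with a call upwards. The H1-2 start held 12.7, 14.2 and 15.6 CPM in PC9 control libraries and 17, 21.7 and 16.8 in DTP libraries. All DTP values lay above all control values, and the rise was 0.37 ± 0.15 (log2, SE; adjusted p = 0.045), lost with DESeq2 (adjusted p = 0.16). A region 1700 bases downstream of the same start, beyond the end of the gene, fell in PC9, from 6.04 to 3.11 CPM on average (log2 -1.0 ± 0.28, adjusted p = 0.0027), with overlapping groups. H1975 had 5 of 11 H1 regions lower and 0 higher (5 and 0 at an unadjusted p under 0.05, 4 and 0 by DESeq2). There the H1-5 start went from 8.5, 10.2 and 10.7 CPM to 4.99, 4.65 and 4.48 CPM, without overlap (log2 -1.07 ± 0.16, adjusted p = 2.4e-09).

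For H2A and H2B, the first dimer of the core, no PC9 region was called higher (1 at an unadjusted p under 0.05, 0 by DESeq2) and 9 were lower. In PC9 the largest falls of these classes were 1405 bases from the H2BC17 start, from 6.04, 5.07 and 5.21 CPM to 1.46, 2.84 and 3.25 CPM (log2 -1.10 ± 0.31, adjusted p = 0.0027), and 716 bases from the H2AC8 start, from 9.53, 6.59 and 10.7 CPM to 5.35, 3.09 and 4.50 CPM (log2 -1.03 ± 0.24, adjusted p = 1.7e-04). In both, every DTP library was below every control library.
In H1975, 10 of 20 H2A regions were lower and 3 higher, while H2B had 2 lower and 3 higher of 24. Over regions within 3 kb of any start 27.0% were lower and 26.1% higher. Class is that of the annotated gene, and a region over a shared divergent promoter was counted under 1 of its 2 genes. On a start lay 9 of 20 H2A and 7 of 24 H2B regions, so class and position are mixed in these counts. The steepest fall was 665 bases from the H2AC16 start, from 11.6, 9.82 and 11.1 CPM to 2.69, 2.38 and 1.9 CPM (log2 -2.22 ± 0.19, adjusted p = 3.9e-24). The largest rises of these classes were small regions beside starts, at -415 bases from the H2AC15 start (2.10 to 4.95 CPM, log2 1.26 ± 0.24, adjusted p = 1.7e-06) and 333 bases from the H2BC10 start (2.94 to 5.37 CPM, log2 0.89 ± 0.21, adjusted p = 1.8e-04).
In HCC2935 6 of 17 H2B regions and 1 of 12 H2A regions fell, against 14.8% over regions within 3 kb of any start. Here too class and position are mixed, as 5 of 17 H2B and 9 of 12 H2A regions lay on a start. A region 2901 bases from the H2BC11 start held 6.55, 9.15 and 7.51 CPM in control and 1.52, 1.32 and 1.34 CPM in DTP, without overlap (log2 -2.44 ± 0.33, adjusted p = 1.1e-07). No DTP or combo library reached the count filter there (1.66 CPM in HCC2935). The region was thus tested only because control was high, and its call is a description. The H2AC11 promoter itself was at 52.4, 57.3 and 56.0 against 46.0, 46.8 and 55.1 CPM and was not called. The region at -559 bases from the H2BC5 start fell from 16.2, 11.5 and 14.7 CPM to 6.65, 8.27 and 5.72 CPM (log2 -1.04 ± 0.21, adjusted p = 1.1e-04).

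The opposite was seen at 1 H2B and 1 H3 gene of HCC2935. The H2BC6 start held 0.218, 0 and 1.56 CPM in control libraries, which are 0 to 5 counts, and 4.56, 6.12 and 7.25 CPM in DTP libraries, 24 to 38 counts. It rose by 3.41 ± 0.48 (log2, adjusted p = 2.0e-07 by edgeR), and because control counts are so few the size of that fold is loosely known. The H3C6 start went from 1.53, 0.591 and 0.626 CPM to 6.65, 4.63 and 6.30 CPM (log2 2.54 ± 0.39, adjusted p = 1.2e-06). At both genes all DTP and combo libraries lay above all control libraries. No control library reached the count filter at either start (1.66 CPM in HCC2935), so both regions were tested only because DTP and combo were high, and their calls are a description rather than support. These are the only histone regions called higher in HCC2935 DTP. Both were called in every alternative fit that tested them, and neither was tested at a mean of at least 50 counts.

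**Figure D4:**
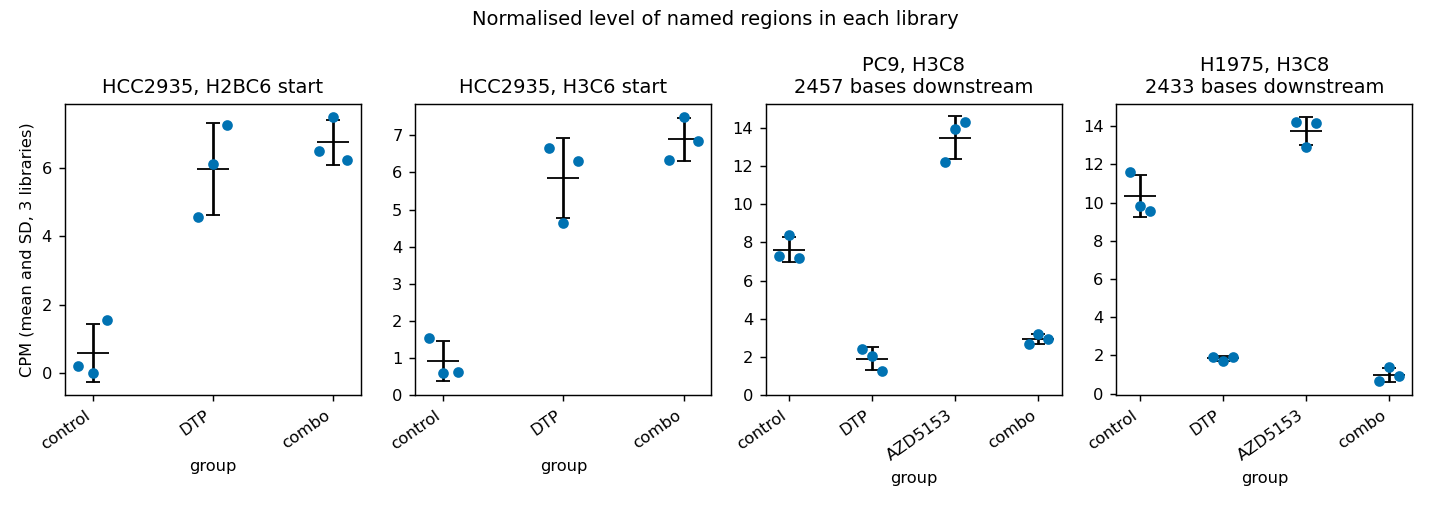
Normalised level (CPM, y axis) in each library (points) by group (x axis), with mean and SD of 3 libraries, for the H2BC6 and H3C6 starts in HCC2935 and for the region downstream of H3C8 in PC9 and H1975. The HCC2935 starts go from at most 1.56 CPM in control to at least 4.56 CPM in DTP, and the H3C8 region falls in DTP and combo of both lines.

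Of the H3 and H4 genes, which form the rest of the core, H3C8 gave the largest fall in both PC9 and H1975, at a site that is not its promoter. The region at chr6:26268857-26269358, 2457 bases from the annotated start and 2055 from that of RefSeq, read 7.31, 8.37 and 7.19 CPM in PC9 control and 2.43, 2.06 and 1.25 CPM in DTP (log2 -1.98 ± 0.30, adjusted p = 2.9e-09). In H1975 the same site, taken as chr6:26268881-26269382, read 11.6, 9.82 and 9.57 CPM against 1.92, 1.7 and 1.9 CPM (log2 -2.47 ± 0.20, adjusted p = 7.5e-26). The groups were far apart in both lines. H3C2, one of the printed promoters, fell at its start in H1975, from 19.9, 15.5 and 15.9 CPM to 8.32, 10.7 and 9.85 CPM (log2 -0.81 ± 0.12, adjusted p = 1.6e-09), and in HCC2935, from 24.0, 28.6 and 30.0 CPM to 15.2, 17.5 and 13.5 CPM (log2 -0.82 ± 0.15, adjusted p = 2.3e-05). The H3C4 start fell in H1975 as well, from 14.4, 12.1 and 10.5 CPM to 5.25, 5.22 and 5.49 CPM (log2 -1.20 ± 0.15, adjusted p = 6.9e-13).
The H4 site 2684 bases from the H4C6 start fell in H1975 from 19.2, 16.9 and 20.6 CPM to 4.48, 3.4 and 4.14 CPM (log2 -2.24 ± 0.14, adjusted p = 5.6e-36). The largest rises were at weak regions, where at most 1 control library reached the count filter, H3C3 1464 bases from its start in PC9 (1.59, 1.77 and 1.74 to 5.83, 4.38 and 5.01 CPM, log2 1.56 ± 0.35, adjusted p = 8.1e-05) and H4C5 1887 bases from its start in H1975 (1.24, 1.75 and 1.21 to 3.71, 2.72 and 4.70 CPM, log2 1.39 ± 0.29, adjusted p = 9.1e-06). In HCC2935 the H4C5 region 572 bases from the start fell from 10.5, 12.7 and 10.6 CPM to 5.70, 6.29 and 4.01 CPM (log2 -1.06 ± 0.23, adjusted p = 3.1e-04). No gene was called in the same direction in more than 2 lines. H1-2, H1-3, H2AC11, H2AC15, H2BC4, H2BC5, H2BC8, H2BC17, H3C2, H3C8 and H4C5 had a region called lower in 2 lines each, and no gene had one called higher in 2. Of these genes, H1-2 also had a region called higher in PC9, and H2AC11, H2AC15, H2BC5 and H4C5 had one in H1975. The regions called lower in 2 lines need not be the same site of the gene.

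A joint fit asked directly whether the DTP change differed between lines, over 52 histone regions matched by position. It called 15 of them (28.8%), against 38.9% of the 82274 matched regions tested. With the replicate number as a block within each line, which pairs the HCC827 libraries, it called 19 (36.5%) against 45.7%, and the regions that differed between HCC827 and PC9 went from 1 to 3. The strongest difference was downstream of H4C6, with log2 changes of -2.22 in H1975 and -1.39 in HCC827 against 0.53 in PC9 and 0.63 in HCC2935 (adjusted p = 7.1e-09). The H3C6 start followed, with 2.44 in HCC2935 and 0.36, 0.18 and 0.06 in PC9, H1975 and HCC827 (adjusted p = 8.7e-05), and each pairwise difference from HCC2935 passed the test (adjusted p = 3.2e-04, 2.8e-05 and 2.6e-04). H3C2 differed as well (adjusted p = 0.030), from -0.18 in PC9 to -0.91 in HCC2935. The H2BC6 start was not among the matched regions.

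In PC9, AZD5153 alone gave calls in both directions. Of 78 regions 10 were higher and 11 lower than in control (background 11.2% and 14.6%, and 11.5% and 13.9% over regions within 3 kb of any start), and the 11 lower ones were 8 of 24 H2B regions, 2 of 14 H2A regions and 1 of 17 H4 regions. H1 had 2 of 9 regions higher and 0 lower (4 and 0 at an unadjusted p under 0.05, 2 and 0 by DESeq2), with class medians of 0.19 for H1, -0.05 for H3, 0.02 for H4, -0.20 for H2A and -0.30 for H2B. The H2BC8 start, printed above, went from 19.7, 16.2 and 17.9 CPM to 9.81, 11.4 and 10.8 CPM (log2 -0.74 ± 0.16, adjusted p = 5.2e-05), and its divergent partner H2AC8 fell by 0.58 ± 0.17 on the log2 scale (adjusted p = 0.0052). The starts of H2BC10 (log2 -0.51 ± 0.14), H2AC17 (-0.48 ± 0.12), H2BC5 (-0.35 ± 0.11) and H2BC4 (-0.29 ± 0.12) were lower as well (adjusted p = 0.0026, 3.7e-04, 0.0065 and 0.044). The largest fall was at a region 22 bases downstream of the H4C3 start, from 20.7, 17.2 and 21.3 CPM to 12.7, 10.9 and 9.15 CPM (log2 -0.85 ± 0.15, adjusted p = 8.3e-07).
Against these, the H1-1 start rose from 7.63, 4.31 and 6.45 CPM to 10.1, 10.9 and 13.4 CPM (log2 0.92 ± 0.21, adjusted p = 1.0e-04) and the H1-2 start by 0.48 ± 0.14 (adjusted p = 0.0052). The other rises were mostly 1 to 3 kb from a start, where 7 of 19 were higher and 1 lower, led by H3C3 at 1464 bases (1.7 to 4.32 CPM, log2 1.32 ± 0.36, adjusted p = 0.0018), H4C6 at 2737 bases (3.95 to 8.70 CPM, 1.13 ± 0.24, adjusted p = 5.6e-05) and H4C5 at 1835 bases (2.15 to 4.93 CPM, 1.12 ± 0.33, adjusted p = 0.0040). No control library reached the count filter (1.98 CPM in PC9) at this H3C3 region, and 1 did at this H4C5 region. Both were tested because other groups were higher, and their calls are a description. H3C8 at 2457 bases, which fell in DTP, was higher here, at 12.2, 13.9 and 14.3 CPM (log2 0.82 ± 0.19, adjusted p = 1.4e-04). Summing the libraries left 5 regions higher and 2 lower, and DESeq2 called 12 in all.

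In H1975 most of the cluster was higher after the same treatment. Of 99 regions 62 were higher and 2 lower (background 26.7% and 31.4%, 58.1% in either direction, and 39.9% and 29.4% over regions within 3 kb of any start), and the summed density of the histone regions was 1179 to 1227 CPM against 839 to 967 in control. All classes took part, with medians from 0.30 (H2B) to 0.47 (H4). The median over the histone regions was 0.42, and the median over the other tested regions of chromosome 6 from 20 to 35 Mb was 0.41, so that the histone median relative to its surroundings was 0.01. In PC9 the surroundings stood at 0.07. Some regions stood well above the surroundings, such as H3C7 1065 bases from its start (1.86, 3.23 and 1.35 to 7.22, 8.36 and 7.30 CPM, log2 1.80 ± 0.22, adjusted p = 2.6e-13), H4C7 at -231 bases (4.33, 5.25 and 4.72 to 17.2, 14.3 and 13 CPM, 1.62 ± 0.16, adjusted p = 3.7e-20) and H2AC15 at -415 bases (2.10 to 5.95 CPM, 1.5 ± 0.24, adjusted p = 5.7e-09). The 2 falls were at H4C6 2684 bases from its start (18.9 to 7.07 CPM, log2 -1.42 ± 0.13, adjusted p = 4.3e-21) and H4C5 1301 bases from its start (7.86 to 5.28 CPM, -0.56 ± 0.17, adjusted p = 0.0031). The H1-1 start was higher here too, at 22 ± 1.6 against 12.8 ± 2.8 CPM (log2 0.81 ± 0.11, adjusted p = 8.9e-11).

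**Figure D5:**
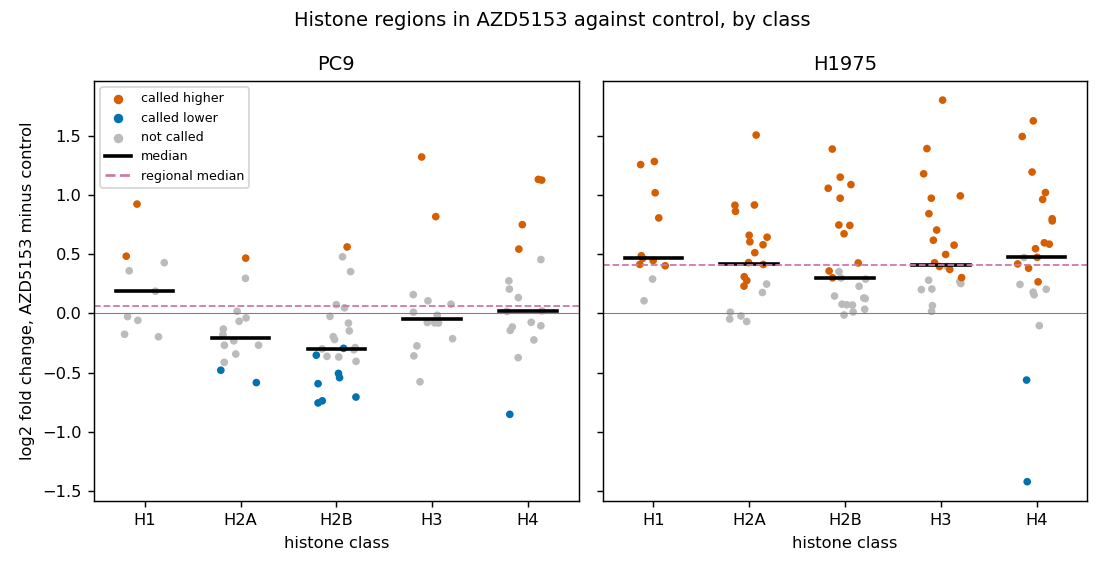
The log2 fold change of AZD5153 minus control (y axis) for each histone region by class (x axis) in PC9 and H1975, with colours, medians and the regional dashed line as in the plot by position. In PC9 the H2A and H2B medians are -0.20 and -0.30 and the H1 median 0.19, while in H1975 the class medians of 0.30 to 0.47 lie around the regional value of 0.41.

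The comparison of combo with DTP sets 21 days of osimertinib and then 3 days of AZD5153 against 24 days of osimertinib, so that an effect of AZD5153 and one of a possible stop of osimertinib cannot be told apart. In PC9 13 regions were higher and 2 lower (background 10.6% and 11.7%, and 17.1% and 10.3% over regions within 3 kb of any start), including 5 of 34 on a start. The H1-4 start went from 19.9, 17.5 and 17.3 CPM to 26.8, 28.1 and 24.5 CPM (log2 0.54 ± 0.13, adjusted p = 4.1e-04), and the H2BC5 start, lower under AZD5153 alone, from 31.6, 35.8 and 29.0 CPM to 48.3, 36.3 and 40.2 CPM (log2 0.38 ± 0.10, adjusted p = 0.0015). The largest rises were H4C1 417 bases from its start (1.94, 3.35 and 2.25 to 9.27, 5.04 and 7.99 CPM, log2 1.57 ± 0.28, adjusted p = 2.1e-06), H1-2 at 1700 bases (3.11 to 6.18 CPM, 1.0 ± 0.28, adjusted p = 0.0041) and H2BC8 at 1400 bases (3.59 to 6.02 CPM, 0.74 ± 0.27, adjusted p = 0.034). The 2 falls were H2BC5 522 bases from its start (9.96 to 5.88 CPM, log2 -0.76 ± 0.21, adjusted p = 0.0041) and H2BC7 at 189 bases (7.73 to 4.57 CPM, -0.76 ± 0.24, adjusted p = 0.012). With libraries summed 1 region was still called, by library size alone 9 were higher and 4 lower, and leaving out combo replicate 1, DTP replicate 1 or DTP replicate 3 left 7, 8 and 9.
H1975 had 8 higher and 6 lower (background 11.5% and 9.48%, and 25.9% and 7.95% over regions within 3 kb of any start), 1 with libraries summed, and 8 without combo replicate 1 or without DTP replicate 2. By library size alone the split was 6 higher and 11 lower. The largest rise was H1-1 996 bases from its start, from 7.29, 5.44 and 3.36 CPM to 10.4, 8.85 and 10.9 CPM (log2 0.93 ± 0.16, adjusted p = 6.4e-07), followed by H3C6 at 782 bases (1759 from the RefSeq start; 0.86 ± 0.26, adjusted p = 0.0083) and H2BC11 at 579 bases (0.73 ± 0.19, adjusted p = 0.0017). Falls were led by the H3C8 site, down to 0.656, 1.37 and 0.901 CPM (log2 -0.90 ± 0.35, adjusted p = 0.048), and this call was lost with the replicate number as a block (adjusted p = 0.051), by DESeq2 (0.12), with libraries summed (0.19), with no filter (0.17) and without combo replicates 1 or 3 or any DTP replicate. H2BC17 at 114 bases (-0.79 ± 0.26, adjusted p = 0.018) and H2AC15 at -415 bases (-0.78 ± 0.21, adjusted p = 0.0033) came next.
HCC2935 had 0 regions higher and 1 lower of 54 (background 1.9% and 6.4%, and 4.69% and 5.08% over regions within 3 kb of any start; 4 higher and 2 lower at an unadjusted p under 0.05, 0 by DESeq2). The call was H2BC4 2373 bases from its start, from 5.13, 3.97 and 2.48 CPM to 2.23, 2.02 and 1.41 CPM (log2 -1.01 ± 0.33, adjusted p = 0.049), and it was lost without DTP replicate 1 or 2 and without any combo replicate. H2BC6 held 6.51, 7.5 and 6.24 CPM in combo and H3C6 6.32, 7.5 and 6.84 CPM. These values overlap those of DTP, with the highest combo library above the highest DTP library at both genes, and neither was called. HCC827 had 0 of 31 called (background 0.0% in both directions), 0 at an unadjusted p under 0.05 and 0 by DESeq2. With the replicate number as a block no histone region was called either, against 0.0% of all regions higher and 0.0304% lower.

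Combo against control, over the whole course, left PC9 with 14 regions higher and 11 lower (background 23.3% and 23.4%, and 28.6% and 19.6% over regions within 3 kb of any start). The starts were on the upper side, with 10 of 34 higher and 0 lower (11 and 1 at an unadjusted p under 0.05, 5 and 0 by DESeq2), and 8 of 25 regions off the start within 1 kb were lower. The H1-2 start reached 24.4, 23.3 and 23.2 CPM against 12.7, 14.2 and 15.6 in control (log2 0.73 ± 0.14, adjusted p = 2.3e-06), and H4C1 at 417 bases (0.88 ± 0.26, adjusted p = 0.0022) and H3C3 at 1464 bases (1.71 ± 0.34, adjusted p = 3.8e-06) were the other leading rises. This H3C3 region, where no control library reached the count filter, was tested because the other groups were higher. H3C8 at 2457 bases stayed low (log2 -1.38 ± 0.27, adjusted p = 4.6e-06), as did H2BC12 (-0.91 ± 0.31, adjusted p = 0.0089) and H2BC5 (-0.87 ± 0.22, adjusted p = 3.1e-04), both 1093 bases from their starts. Without control replicate 3 the total was 16, and with libraries summed it was 4 higher and 6 lower.
H1975 combo had 8 higher and 32 lower, which is 32.3% lower (background 27.2% and 28.6%, and 39.5% and 22.6% over regions within 3 kb of any start), with 17 of 36 starts lower and 0 higher (18 and 0 at an unadjusted p under 0.05, 13 and 0 by DESeq2). Scaling by library size alone gave 18 higher and 27 lower. The H3C8 site, H4C6 at 2684 bases and H2AC16 at 665 bases led again (log2 -3.37 ± 0.23, -2.07 ± 0.14 and -2.04 ± 0.18; adjusted p = 1.6e-32, 5.7e-33 and 7.9e-22), and the rises were led by H4C5 at 1887 bases (1.71 ± 0.27, adjusted p = 1.0e-08), H2BC15 at -35 bases (-844 from the RefSeq start; 1.3 ± 0.19, adjusted p = 5.0e-10) and H1-2 at 1031 bases (0.68 ± 0.12, adjusted p = 5.6e-07). At this H4C5 region only 1 control library reached the count filter (1.12 CPM in H1975).
HCC2935 combo had 7 higher and 16 lower (background 20.7% and 21.6%, and 33.9% and 16.0% over regions within 3 kb of any start), and 14 in all without control replicate 1 and 15 without combo replicate 1. H2BC6 and H3C6 remained the largest rises (log2 3.60 ± 0.46 and 2.79 ± 0.38; adjusted p = 2.0e-08 and 5.3e-08), followed by H2AC8, from 5.68, 6.2 and 5.01 CPM to 10.0, 8.65 and 10.9 CPM (0.79 ± 0.23, adjusted p = 0.0048). The falls were led by H2BC11 at 2901 bases (-3.10 ± 0.36, adjusted p = 1.6e-09), H2BC4 at 2373 bases (-1.77 ± 0.32, adjusted p = 1.8e-05) and H2BC5 at -559 bases (-1.37 ± 0.22, adjusted p = 1.3e-06). H2BC6 and H3C6 were tested only because DTP and combo were high, and H2BC11 at 2901 bases only because control was high. The comparisons of combo with control share their control libraries with those of DTP.
In HCC827, where same-numbered libraries varied together, combo against control had 0 of 31 called (background 0.0364% and 0.121%), 6 lower at an unadjusted p under 0.05, and 0 by DESeq2. With the replicate number as a block, 3 of 31 were called lower and 0 higher, where that fit called 4.71% of all regions lower and 1.7% higher. They were at H1-3 647 bases from its start (log2 -2.09 ± 0.48, adjusted p = 0.0093), H2AC13 (-1.14 ± 0.33, adjusted p = 0.041) and H3C12 (-1.36 ± 0.38, adjusted p = 0.029). At the H1-3 region no combo library and 1 DTP library reached the count filter (3.94 CPM in HCC827), so it was tested only because control was high. The median of -0.57 over the histone regions became -0.15 without control replicate 3.

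The change from DTP to combo was then set against the change from control to AZD5153, as a test of the difference between them. The limit on osimertinib in combo holds here too. In PC9 7 of 78 regions had a more positive change from DTP to combo and 2 a more negative one (background 7.32% and 6.46%, and 9.55% and 5.24% over regions within 3 kb of any start), with 0 called when libraries were summed, 1 by DESeq2, 3 and 3 by library size alone, and 5 without control replicate 1 or without control replicate 2. H2BC5 at its start (difference 0.73 ± 0.14 on the log2 scale, adjusted p = 2.7e-05) fell with AZD5153 alone and rose in combo over DTP. H1-1 at its start (-0.99 ± 0.30, adjusted p = 0.012) rose with AZD5153 alone and in DTP read 9.48, 6.45 and 7.01 CPM against 8.05, 9.01 and 4.8 CPM in combo, which overlap.
In H1975 3 regions were more positive and 37 more negative (background 24.4% and 18.2%, and 29.1% and 25.3% over regions within 3 kb of any start), and by library size alone 1 and 71. The median difference was -0.38 where the surrounding regions of the chromosome had -0.34. H4C6 at 2684 bases stood on the other side (1.59 ± 0.24, adjusted p = 3.8e-09), as AZD5153 lowered it in drug-naive cells, and in DTP it was already at 4.01 CPM on average, against 4.47 CPM in combo. H2AC15 at -415 bases had the most negative difference (-2.28 ± 0.32, adjusted p = 1.5e-10).

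Other genes tied to histone supply were counted at their promoters in DTP against control, each by the region nearest to its start within 3 kb. Their counts stand beside 14.9% higher and 14.6% lower in PC9, 26.1% and 27.0% in H1975 and 21.5% and 14.8% in HCC2935 over all annotated regions within 3 kb of a start. Of replication genes, 5 of 36 were higher and 2 lower in PC9, 1 and 17 of 36 in H1975, while HCC2935 had 6 and 8 of 36. The largest fall in the last 2 lines was TYMS, thymidylate synthase (log2 -1.12 ± 0.18, adjusted p = 6.4e-09, and -1.16 ± 0.25, adjusted p = 2.1e-04). In PC9 it was RRM2, a ribonucleotide reductase subunit (-0.28 ± 0.11, adjusted p = 0.032), and the largest rises were GINS1 in PC9 (0.99 ± 0.18), ORC6 in H1975 (0.59 ± 0.15) and POLA1 in HCC2935 (0.83 ± 0.19).
Of the regulators of histone genes and their transcript ends, 0 of 21 were higher and 1 lower in PC9 (CPSF3, a cleavage factor, -0.40 ± 0.12), 1 and 5 of 22 in H1975, while HCC2935 had 4 and 1 of 22. In HCC2935 POU2F1, which encodes OCT1, rose from 10.9 to 11.8 CPM (the 3 control libraries) to 17.5, 21.3 and 21.4 CPM (log2 0.84 ± 0.17, adjusted p = 8.1e-05), and CASP8AP2, a histone gene coactivator also called FLASH, fell (-0.39 ± 0.13). In H1975 CSTF2T rose (1.0 ± 0.26) and the largest fall was CPSF2, at 6.65, 5.65 and 5.93 CPM in control and at most 0.342 CPM in every library of the other 3 groups. CPSF2 was therefore tested only because control was high. CSTF2T was weak in H1975 control, at 1.24, 2.96 and 1.62 CPM.
Histone chaperones had 1 of 17 higher and 1 lower in PC9 (HIRA, 1.21 ± 0.28, and NAP1L1, -0.30 ± 0.10), 1 and 2 of 17 in H1975 (ASF1A, 0.63 ± 0.25, and ASF1B, -0.38 ± 0.075, as leaders) and 2 and 2 of 16 in HCC2935 (RBBP7, 0.89 ± 0.20, and DNAJC9, -0.62 ± 0.17). Control levels were low at HIRA (1.8 to 4.2 CPM) and ASF1A (1.70 to 2.70 CPM), and higher at NAP1L1 (35.9 to 41.8 CPM) and ASF1B (42.1 to 57.8 CPM). Histone genes outside the cluster had 2 of 19 higher and 1 lower in PC9, 1 and 8 of 18 in H1975, while HCC2935 had 2 and 0 of 17. Their leaders were MACROH2A2 (1.27 ± 0.28) and H4-16 (-0.50 ± 0.13) in PC9, H2BU1 (1.6 ± 0.51) and H2AC18 (-0.89 ± 0.16) in H1975, and H2AJ (0.48 ± 0.15) in HCC2935. MACROH2A2 was weak in PC9 control, at 2.22, 2.79 and 3.97 CPM. H2BU1 read at most 0.539 CPM in H1975 control, 0.896 to 1.79 in DTP and 8.71 to 12.6 in AZD5153. It was tested only because AZD5153 was high (count filter 1.12 CPM in H1975), so its call is a description. In HCC827 none of the 4 lists had a call, with 1 replication gene at an unadjusted p under 0.05.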

How the data were processed

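ATAC-seq libraries of 14 groups with 3 libraries each were analysed from the deposited tables. The authors counted reads per region, and the deposited counts are whole numbers without normalisation. Per the labels reads were placed on hg38, and the submitters' processing notes name BWA 0.7.17, SAMtools 1.9, deepTools 3.4, MACS2 2.2.6, featureCounts 2.0.0 and ChIPseeker 1.29.1. The deposited peak files of each library give a fold ratio over background and a −log10 q-value, and no peak was dropped here. For each line, counts were scaled by TMM and fitted by group with edgeR 4.0.16 (R 4.3.3) on all regions passing filterByExpr, and p-values were Benjamini-Hochberg adjusted over all of them (call: adjusted p under 0.05). All 262 histone regions passed the filter. SE was taken from the log2 fold change and its F statistic. DESeq2 1.42.0, other scalings and filters, summed libraries and left-out libraries were alternatives. For the joint fit, regions were matched between lines at 50% reciprocal overlap. On simulated counts the fit recovered 48 of 100 changes of 2-fold and 7 of 100 of 1.5-fold for HCC2935 DTP against control (142017 regions), with 1 false call. Only these few regions were changed there, while 37.3% of all regions were called in the data. The adjusted p threshold was thus stricter in the simulation, and its rates do not carry over to the reported test. Same-numbered HCC827 libraries deviated together in all 9 pairs (correlations 0.257 to 0.827), so these numbers pair the samples, from the data rather than from the labels. Named with full statistics were, per line and comparison, the 3 largest rises and 3 largest falls among called regions, the highest and lowest control level per class, genes called the same way in most lines and, for other lists, the largest called rise and fall in DTP. Regions named beyond this rule were chosen after their values were seen. The histone regions and gene lists were chosen with earlier results of these data known. Intervals and tests cover these libraries only. The list of markers of other cells is not reported here in full.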

Additional observations from a re-analysis of the deposited data

Results flagged for a closer look

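In PC9, 9 of 78 histone regions changed differently between DTP and combo than between control and AZD5153, by the test of the difference. This is 11.5%, against 13.8% of all regions, and with libraries summed 0 were called. On the log2 scale the differences were 1.17 for H1-2 1700 bases from its start, 0.87 for H2BC8 658 bases from its start and 0.732 for the H2BC5 start, and on the negative side -0.992 for the H1-1 start and -0.962 for H4C6 2737 bases from its start.

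In H1975 40 of 99 regions (40.4%) differed by the same test, against 42.5% of all regions, and 16 with libraries summed. The leading positive differences were 1.59 for H4C6 2684 bases from its start, 0.65 for H4C5 at 1301 bases and 0.515 for H1-1 at 996 bases, and the leading negative ones -2.28 for H2AC15 at -415 bases, -1.81 for H2BC9 at 2268 bases and -1.76 for H2BC17 at 114 bases.

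The DTP change differed between the 4 lines at 15 of the 52 matched histone regions (28.8%), against 38.9% of all matched regions.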

How the results depend on the processing

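None of the 68 named results reversed direction in an alternative fit. The summaries over the histone regions did in places. These were the HCC827 DTP median without control replicate 3, and the split of H1975 combo against DTP by library size alone. Of 1020 alternative values for 68 named results, 904 kept their direction and side of the threshold and 116 kept their direction but were no longer called. Of 282 alternative medians over the histone regions for 16 results, 228 moved by less than the spread between replicates and 54 by more. Counts of called histone regions moved by over 1.5 times in several settings. Summing the libraries with the dispersion of HCC2935, which is below that of HCC827 (0.0103 against 0.203), gave 7 for PC9 AZD5153 (21 in the reported fit), 7 for PC9 DTP (16), 1 for PC9 combo against DTP (15), 10 for PC9 combo against control (25), 0 for the PC9 interaction (9), 36 for H1975 AZD5153 (64), 19 for H1975 DTP (41), 1 for H1975 combo against DTP (14), 22 for H1975 combo against control (40), 16 for the H1975 interaction (40), 1 for HCC827 DTP (0), 8 for HCC827 combo against control (0), 0 for HCC2935 combo against DTP (1) and 13 for HCC2935 combo against control (23). With no filter the counts were 13 for PC9 AZD5153, 3 for the PC9 interaction, 37, 9 and 21 for H1975 AZD5153, combo against DTP and interaction, and 7, 0 and 13 for HCC2935 DTP, combo against DTP and combo against control. At a mean of at least 50 counts they were 7, 4, 6, 12 and 2 for PC9 AZD5153, DTP, combo against DTP, combo against control and interaction, 25 and 8 for H1975 DTP and combo against DTP, 1 for HCC827 combo against control, and 0 and 14 for HCC2935 combo against DTP and against control. DESeq2 gave 12, 10, 5, 16 and 1 in PC9 in the same order, 6 for H1975 combo against DTP, and 0 and 12 for HCC2935 combo against DTP and against control. Within 1 kb of a start there were 13, 5 and 9 for PC9 AZD5153, DTP and combo against DTP, and 0 for HCC2935 combo against DTP. With 1 region per gene there were 11, 2, 6 and 12 for PC9 AZD5153, DTP, combo against DTP and combo against control, 32, 21, 5, 22 and 14 for H1975 AZD5153, DTP, combo against DTP, combo against control and interaction, and 6, 0 and 13 for HCC2935 DTP, combo against DTP and combo against control. By library size alone the H1975 interaction had 72 and HCC2935 combo against DTP 2, which had 0 with DESeq2 size factors and 3 when fitted on its own groups. These moves go with fewer regions or samples in some settings, and otherwise the cause was not tested.

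Leaving out 1 library gave 15 to 21, 10 to 15, 7 to 15, 16 to 27 and 5 to 10 calls for PC9 AZD5153, DTP, combo against DTP, combo against control and interaction, 47 to 70, 30 to 40, 8 to 12, 35 to 41 and 29 to 43 in H1975 in the same order, 0 in HCC827, and 8 to 14, 0 to 1 and 14 to 22 for HCC2935 DTP, combo against DTP and combo against control. At −log10 q of at least 5 the mean number of starts with a peak was 42.8 in PC9 (45.8 with all peaks), 51.3 in H1975 (52.2), 27.2 in HCC827 (36.4) and 36.3 in HCC2935 (38.9).

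With the replicate number as a block, HCC827 combo against control had 3 calls. In the other lines numbers did not pair the libraries (correlations -0.0098 to 0.0126 in PC9, -0.0624 to 0.0152 in H1975 and -0.074 to 0.206 in HCC2935), and the block gave 21, 16, 15, 26 and 9 calls in PC9, 64, 41, 13, 40 and 40 in H1975 and 14, 1 and 24 in HCC2935.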
